A study of Petunia x hybrida with 32 samples.

Results

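Membrane transporters of petunia leaves were examined under salt, other than the water channels, the SWEET11-type and SWEET1-type sugar transporters, the sodium/proton exchanger and the other components that the rule leaves out by name. Members were transcripts whose description held the word transporter, carrier, permease, channel or H+-ATPase, with 3 transcripts of mitochondrial or thylakoid annotation and 8 of the named components left out. This gave 84 transcripts of 53 components, out of 4767 transcripts of 3450 components, of which 1434 transcripts carried a description. A component is a gene-like group of assembled sequences, and its numbered isoforms share sequence, so isoforms of 1 component are not independent and the split of reads between them is uncertain. No proton ATPase was among the members. The working name of the set does not hold throughout, because a SWEET2a-like and an ERD6-like sugar transporter, 2 inositol transporter components and 3 sodium or potassium transport components remained by the rule. A secretory carrier membrane protein, which takes part in vesicle traffic, was caught by the word carrier.

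Petunia x hybrida Mitchell Diploid plants grew hydroponically with 12 h of light a day. The salt groups were leaves exposed to 150 mM NaCl for 6 or 24 h, and the control groups were leaves without added NaCl at 0, 6 and 24 h, with 3 biological replicates in each of the 5 groups. Every replicate pooled leaves of several plants, and each salt group had a control of the same hour. Salt samples at 0 h were not analysed here. Values are RPKM, reads scaled by transcript length and by library size, so that levels can be set side by side between transcripts. How many reads lay behind a single value is unknown, and the 3 replicates of a group set the precision. Each fold change below is on the log2(RPKM + 1) scale with its standard error, which understates changes of transcripts near 0, and a transcript was called at an adjusted p of at most 0.05 over all 4658 transcripts tested. For salt, rose and fell mean higher and lower than in control leaves of the same hour, not a change over time.

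Membrane transporters move solutes across the plasma membrane and the membranes of the vacuole, plastid and mitochondrion. Channels let ions pass down their gradients, carriers and permeases couple a solute to a gradient, often of protons, and ABC transporters use ATP. In leaves under salt, such proteins are known for sorting sodium and chloride into vacuoles, for moving compatible solutes such as proline and inositol, and for setting stomatal aperture through ion fluxes of guard cells.

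Transporter transcripts were called in both directions under salt at 24 h, at about the rate of all tested transcripts. Of the 82 members that passed the filter on low values, 20 were higher and 20 lower in salt-treated leaves, which is 24.4% in each direction, against 24.2% higher and 22.3% lower among all tested transcripts. At 6 h, 8 members were higher (9.76%) and 10 lower (12.2%), against 17.3% and 17.2% of all tested transcripts. With every replicate set to the same median, the 6 h split turned to 13 higher and 7 lower, against 939 higher and 627 lower of all, while the 24 h split stayed at 20 and 20. The filter at 5 RPKM gave 14 higher and 19 lower at 24 h. With the HPLC libraries alone, that is without the libraries made with non-HPLC index primers that were otherwise averaged into most replicates, 15 members were higher and 11 lower at 24 h. Under a stricter rule (FDR at most 0.001, at least 1 on the log2 scale), 2 members were called at 6 h and 11 at 24 h (13.4%), against 4.98% and 14.5% of all. The median log2 fold change of the members was −0.28 at 6 h and −0.08 at 24 h, beside −0.07 and 0.01 over all tested transcripts. Without the first salt replicate of 6 h, 10 members were called at 6 h in place of 18. The other 2 members, an NRAMP6-like metal transporter isoform and an equilibrative nucleoside transporter, stayed below the filter, at no more than 1.31 and 1.34 RPKM in any replicate.

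**Figure D1:**
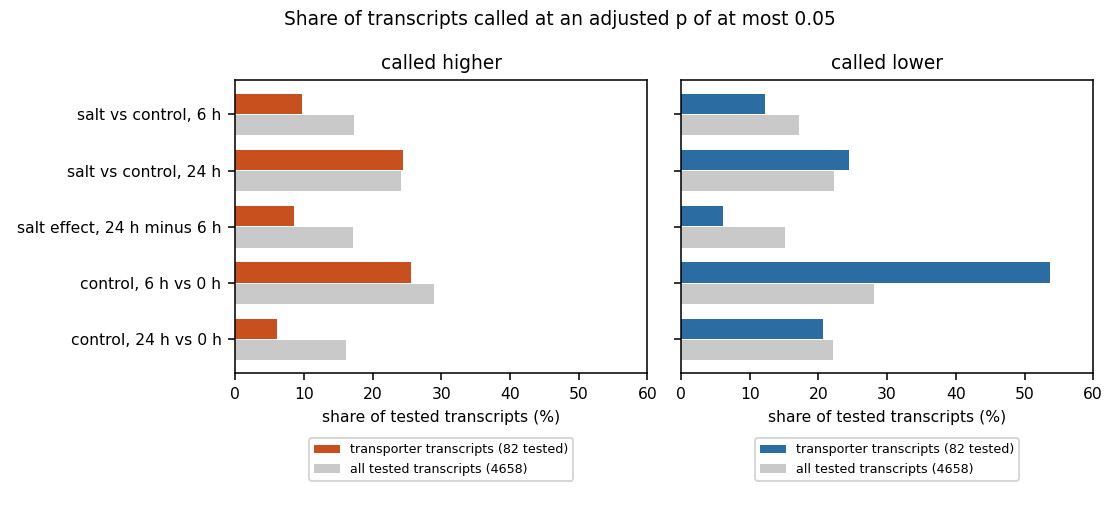
Share of tested transcripts called higher (left) and lower (right) in each comparison, for the 82 transporter transcripts (coloured bars) and all 4658 tested transcripts (grey bars). The transporter share stands furthest above the grey bar in control leaves at 6 h against 0 h, called lower, with 53.7% against 28.1%.

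With the RPKM of all isoforms of a component summed, an alternative chosen after the data had been seen, 13 of 52 transporter components were called at 6 h and 27 at 24 h. These are 25% and 51.9% of them, against 36.5% and 49% of all 3421 components tested. The comparisons at 6 h and 24 h use separate leaf samples, which may come from the same plants. Of the members called higher, 5 were called at both times, which is 62.5% of those at 6 h and 25% of those at 24 h. Of the members called lower, 4 were called at both times, 40% of those at 6 h and 20% of those at 24 h. A single member, an ABC transporter, was called in opposite directions. With isoforms summed, a mechanosensitive ion channel protein 8-like component (comp25220_c0) was so too. Its total was lower at 6 h (−0.92 ± 0.23, adjusted p = 0.00713) and higher at 24 h (0.73 ± 0.23, adjusted p = 0.017). Its member isoform seq1 was called at neither time.

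Markers of leaf cell types moved with these comparisons. The summed RPKM of 5 mesophyll markers, led by a chlorophyll a-b binding protein, was 1190 to 1282 in salt-treated leaves and 3527 to 4902 in control leaves at 24 h, with 2 of 4 tested markers called lower. Summed RPKM of 5 epidermis and cuticle markers, all of them lipid transfer proteins, was 1710 to 2141 in salt-treated leaves and 810.5 to 1436 in control leaves at 24 h, with 3 of 5 called higher and 1 lower. Markers of dividing cells, 10 transcripts, summed to 15.0 to 17.6 in salt-treated leaves and 33.4 to 58.6 in control leaves at 6 h, with 4 of 10 called lower. Most of these 10 are isoforms of a kinesin heavy component (comp22468_c0) or an MCM4-like component (comp25231_c0), so their calls are not independent. The 4 xylem and lignin markers summed to 47.9 to 64.7 in salt-treated and 72.9 to 91.1 in control leaves at 24 h, with 1 of 4 called higher and 1 lower. Summed RPKM of 3 petal pigment markers was 44.6 to 51.5 in salt-treated leaves and 27.9 to 42.6 in control leaves at 24 h, with 1 of 3 called higher. Of these lists, a cinnamoyl reductase-like marker and a photosystem II 10 kDa protein were each at 0 in at least 1 replicate. The same held for MCM4-like isoforms comp25231_c0_seq3 and comp25231_c0_seq4 of the dividing cell list. It also held for a flavonoid 3-O-glucosyltransferase 6-like petal pigment marker. Their part in the transporter results was not tested, and in whole leaves fewer cells of a type cannot be told apart from less RNA per cell.

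Amino acid transporters formed the class with the most members called higher. Of 9 members of 6 components, 7 were higher and 2 lower at 24 h, against 0 higher and 2 lower at 6 h by limma, where 3 were higher at an unadjusted p under 0.05. Among all tested transcripts, 24.2% were higher and 22.3% lower at 24 h, and 17.3% and 17.2% at 6 h. The class had a median log2 fold change of 1.44 at 24 h, beside 0.01 for all tested transcripts. A vacuolar amino acid transporter 1-like transcript (comp7589_c0_seq2) showed the largest change of the whole set. In yeast, the transporter of this name loads amino acids into the vacuole. Its RPKM was 4.50, 13.5 and 7.90 in salt-treated leaves at 24 h, and it was listed at 0 in all 3 control replicates of that hour. At 6 h its RPKM was 0.280, 0 and 0 in salt-treated leaves and 0, 0.420 and 0.270 in control leaves, so that all 12 replicates outside the salt group of 24 h lay below 0.5 RPKM. The fitted difference at 24 h was 3.16 ± 0.27 on the log2(RPKM + 1) scale (adjusted p = 9.57e-07), which depends on the added 1 and is no bound. The transcript passed the filter on low values only through the 3 salt replicates of 24 h, the group where it is high. Its adjusted p is thus not independent of the filter and gives no support by itself.

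Amino acid permease 6, a proton-coupled amino acid importer in Arabidopsis, was the description of a pair of components that went opposite ways. The 3 isoforms of comp25595_c0 rose at 24 h. For isoform seq5, RPKM was 25.9, 26.8 and 28.2 in salt-treated leaves and 3.50, 6.57 and 7.76 in control leaves at 24 h (log2 fold change 2.06 ± 0.31, adjusted p = 0.00012). Isoforms seq2 and seq4 rose by 1.63 ± 0.28 and 2.04 ± 0.42 on the log2 scale (adjusted p = 0.000308 and 0.00132). At 6 h, all salt replicates of the 3 isoforms lay above all control replicates, with log2 fold changes between 0.60 and 0.81 that did not pass the test. Component comp13398_c0 fell at both times. Its isoform seq2 had 1.56, 2.69 and 3.06 RPKM in salt-treated leaves and 6.79, 4.98 and 7.75 RPKM in control leaves at 6 h (log2 fold change −1.14 ± 0.24, adjusted p = 0.00258). At 24 h the same isoform had 3.69, 3.08 and 4.61 RPKM in salt-treated leaves and 11.0, 9.34 and 10.9 RPKM in control leaves (log2 fold change −1.26 ± 0.24, adjusted p = 0.000621). Salt and control replicates did not overlap at either time. Isoform seq1 changed by −0.77 ± 0.26 at 6 h and −1.01 ± 0.26 at 24 h, and its 6 h call was lost without either of salt replicates 1 and 3 or any of the 3 control replicates, at adjusted p of 0.059 to 0.1. With the HPLC libraries alone it was called neither at 6 h (−0.60, adjusted p = 0.232) nor at 24 h (−0.82, adjusted p = 0.0899). Summed over isoforms, comp13398_c0 fell by 1.09 at 6 h and by 1.27 at 24 h (adjusted p = 0.00169 and 0.000281).

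A proline transporter (comp24102_c4_seq1), of a family that carries proline and other compatible solutes, had 64.3, 77.1 and 68.4 RPKM in salt-treated leaves and 19.1, 29.4 and 27.8 RPKM in control leaves at 24 h. It rose by 1.44 ± 0.28 on the log2 scale (adjusted p = 0.000792). At 6 h the salt replicates, 47.1, 51.8 and 42.3 RPKM, again lay above the control replicates, 30.8, 31.7 and 34.5 RPKM, but the difference of 0.53 ± 0.28 was not called (adjusted p = 0.148). The other amino acid transporters called higher at 24 h were 2 single isoforms with log2 fold changes of 0.74 and 0.66.

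**Figure D2:**
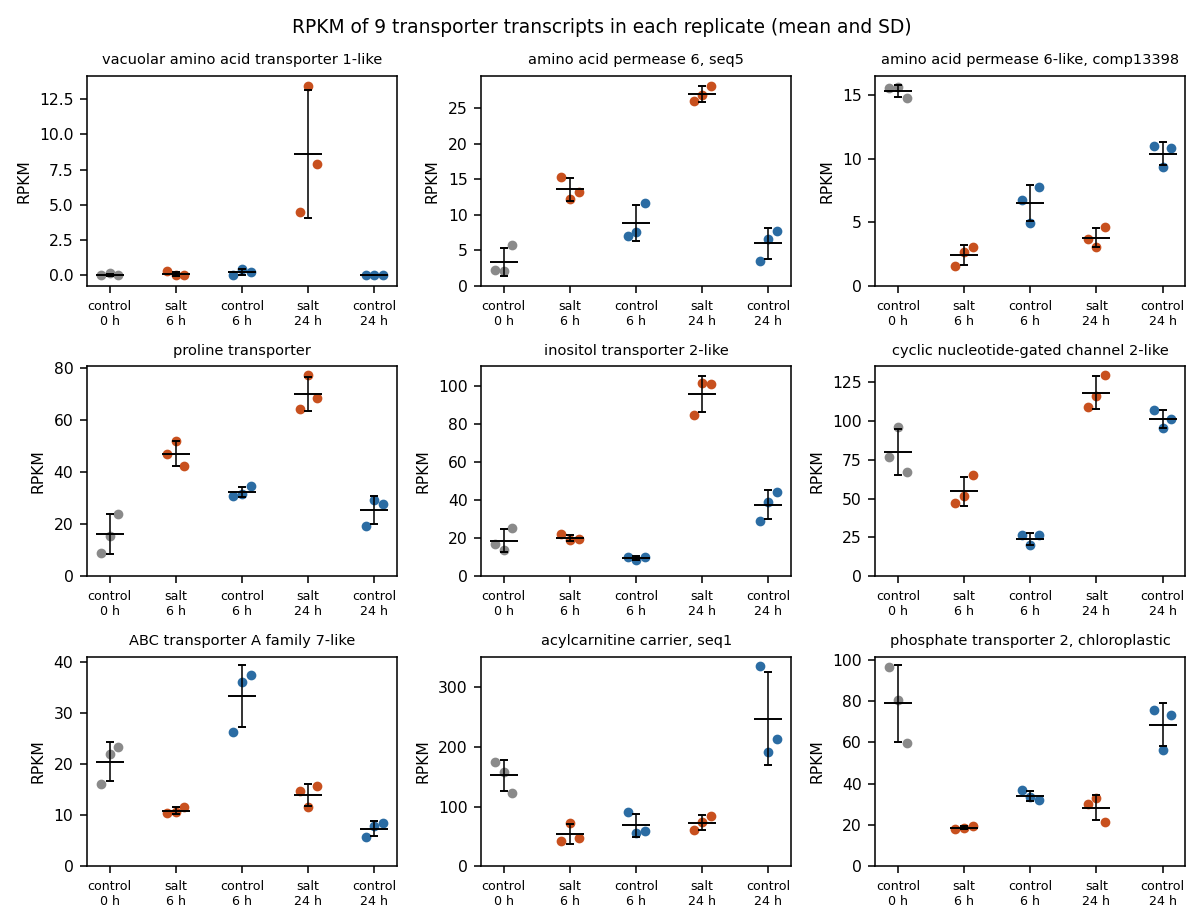
RPKM (vertical axes, from 0) of 9 transporter transcripts in each replicate of the 5 groups, with bars for the mean and whiskers for the SD of 3 replicates. Salt replicates are orange, control replicates blue and the 0 h control grey. The vacuolar amino acid transporter 1-like transcript is above 0.5 RPKM only in the 3 salt replicates of 24 h, and comp13398 is lower in salt at both hours.

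An inositol transporter 2-like transcript (comp10770_c0_seq1) was higher under salt at both times. In Arabidopsis, the transporter of this name imports inositol with protons. Its RPKM was 22.1, 18.8 and 19.4 in salt-treated leaves and 10.3, 8.37 and 9.84 in control leaves at 6 h (log2 fold change 1.01 ± 0.23, adjusted p = 0.00472). Its RPKM at 24 h was 84.9, 102 and 101 in salt-treated leaves and 29.3, 39.0 and 44.3 in control leaves (log2 fold change 1.35 ± 0.23, adjusted p = 0.000325). Replicates did not overlap at either hour. Of the other sugar transporters, the 2 isoforms of SWEET2a-like comp22595_c0 fell by 1.04 ± 0.36 and 0.99 ± 0.39 at 24 h (adjusted p = 0.0293 and 0.0456). Isoform seq1 lost this call without control replicate 1 or without salt replicate 1 or 2 (adjusted p of 0.071 to 0.14), and seq2 lost it without any 1 of 5 replicates, the exception being control replicate 3. Neither was called with the HPLC libraries alone (adjusted p = 0.0832 and 0.0809). Of the 4 isoforms of an ERD6-like 6 sugar transporter (comp23897_c0), the seq3 isoform fell by 0.57 ± 0.22 at 24 h (adjusted p = 0.0422), a call that no leave-one-out fit kept (adjusted p of 0.0502 to 0.109).

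Sulfate transporter-like component comp26131_c1 had isoforms that moved in opposite directions while the change of their total did not pass the test. Its isoform seq2 had 182, 189 and 181 RPKM in salt-treated leaves and 52.4, 54.3 and 86.2 RPKM in control leaves at 24 h (log2 fold change 1.54 ± 0.42, adjusted p = 0.00801). Isoform seq3 had 121, 113 and 91.5 RPKM in salt-treated leaves and 239, 131 and 266 RPKM in control leaves at 24 h (log2 fold change −0.90 ± 0.26, adjusted p = 0.011), and without control replicate 3 this fall was −0.71 and not called (adjusted p = 0.051). Neither isoform had overlapping groups at 24 h. At 6 h, seq2 had 25.6, 20.2 and 30.5 RPKM in salt-treated leaves and 4.84, 9.97 and 24.1 RPKM in control leaves. The groups overlapped there, and the call at 6 h (log2 fold change 1.15 ± 0.42, adjusted p = 0.0447) was lost without control replicate 1 (0.65, adjusted p = 0.2), control replicate 2 or any salt replicate, and with the HPLC libraries alone.

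The seq2 isoform made up 50.5% ± 8.88 of the RPKM of both isoforms in salt-treated leaves and 23.4% ± 12.1 in control leaves at 6 h (SD, n = 3 each). At 24 h it made up 63.0% ± 3.20 in salt-treated leaves and 23.9% ± 5.72 in control leaves, a difference of 39.0 percentage points. Salt and control replicates did not overlap at either hour, which gives the smallest p that an exact permutation test of 3 against 3 allows, 0.1, two-sided. The share is computed from the same isoform values. At 24 h its separation was fixed by them, because seq2 was higher and seq3 lower without overlap. The test thus adds no support there. The sum of both isoforms was 292 ± 17.6 RPKM in salt-treated leaves and 276 ± 84.6 RPKM in control leaves at 24 h, and the component total changed by 0.13 ± 0.26 on the log2 scale (adjusted p = 0.699). Which exons differ between the isoforms is not given by the files, and reads shared by them were divided by an estimate.

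**Figure D3:**
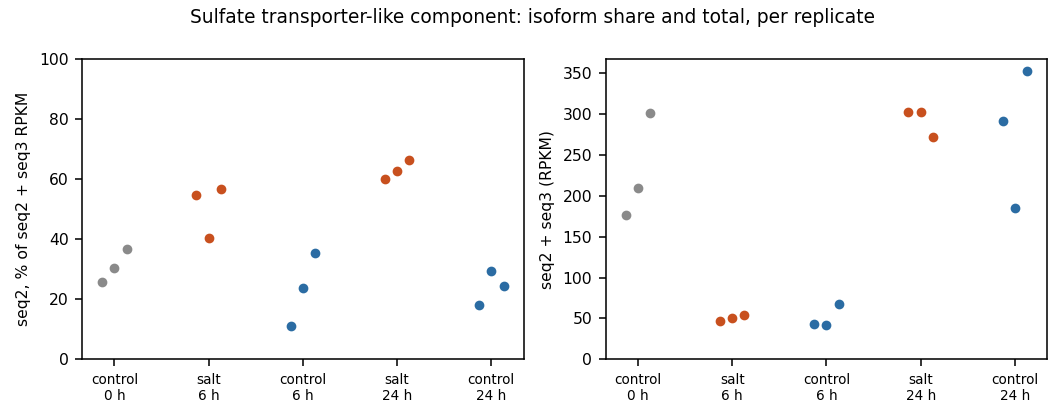
Left, share of isoform seq2 in the summed RPKM of isoforms seq2 and seq3 of the sulfate transporter-like component, in percent, per replicate. Right, their summed RPKM. The share is 63.0% on average in salt-treated leaves at 24 h and 23.9% in control leaves of that hour, while the sums overlap.

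The auxin class held 7 isoforms of a pair of components. Isoforms seq2 and seq3 of comp23485_c0 were described as auxin efflux carrier-like, a kind that exports auxin or holds it in the endoplasmic reticulum. Its isoform seq1 and all isoforms of comp25629_c0 were described as uncharacterized transporters named after yeast YBR287W. They were placed in this class, and the descriptions do not say whether they carry auxin. The 3 isoforms of comp23485_c0 were higher in salt-treated than in control leaves at both times. The 4 isoforms of comp25629_c0 were not called at either time, with log2 fold changes between −0.63 and −0.16. Control leaves had fallen by 6 h. For seq3, seq1 and seq2 of comp23485_c0, mean RPKM was 1.52, 1.90 and 1.31 in salt-treated leaves at 6 h. At 0 h the means were 2.78, 3.95 and 1.43. For isoform seq2 of comp23485_c0, RPKM was 1.51, 1.30 and 1.10 in salt-treated leaves and 0, 0 and 0.445 in control leaves at 6 h (log2 fold change 1.02 ± 0.26, adjusted p = 0.00838). At 24 h it was 5.63, 4.10 and 8.43 in salt-treated leaves and 2.38, 1.32 and 2.46 in control leaves (log2 fold change 1.18 ± 0.26, adjusted p = 0.00198). The component total rose by 1.78 ± 0.35 at 6 h and 1.37 ± 0.35 at 24 h (adjusted p = 0.00154 and 0.00485). The salt replicates of all 3 isoforms lay above the control replicates at both hours. Isoform seq1 lost its calls at 6 h without control replicate 1 or 3 or salt replicate 1 or 3 (adjusted p of 0.058 to 0.11) and at 24 h without control replicate 2 or 3 or salt replicate 2 or 3 (0.053 to 0.11), and seq3 lost its 6 h call without control replicate 3 (0.84, adjusted p = 0.071) or salt replicate 1 (0.85, adjusted p = 0.07). With the HPLC libraries alone, seq2 was not called at 6 h (1.07, adjusted p = 0.076), and seq1 was called neither at 6 h (0.79, adjusted p = 0.356) nor at 24 h (1.12, adjusted p = 0.164).

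Ion channels changed one by one. A cyclic nucleotide-gated ion channel 2-like transcript (comp17145_c0_seq1), named after a calcium-permeable channel of Arabidopsis, had 47.4, 51.6 and 65.1 RPKM in salt-treated leaves and 26.4, 19.8 and 26.6 RPKM in control leaves at 6 h (log2 fold change 1.14 ± 0.20, adjusted p = 0.000885). Later, at 24 h, it had 109, 116 and 129.7 RPKM in salt-treated leaves and 107, 95.5 and 102 RPKM in control leaves, a difference of 0.22 ± 0.20 that was not called. An extracellular ligand-gated ion channel (comp11813_c0_seq1) rose at 24 h, with 15.2, 16.3 and 13.9 RPKM in salt-treated leaves and 6.08, 5.33 and 6.04 RPKM in control leaves (log2 fold change 1.24 ± 0.22, adjusted p = 0.000484). Mechanosensitive ion channel protein 8 (comp25958_c0), a channel opened by membrane tension and known from Arabidopsis pollen, fell at 6 h. Its isoform seq4 had 0.290, 0.420 and 0.450 RPKM in salt-treated leaves and 1.30, 1.54 and 3.76 RPKM in control leaves at 6 h (log2 fold change −1.13 ± 0.35, adjusted p = 0.021). Without control replicate 3 this was −0.80 and without salt replicate 1 it was −1.08, neither of them called (adjusted p = 0.098 and 0.06), nor was it with the HPLC libraries alone (−1.19, adjusted p = 0.0538). The component total fell by 1.57 ± 0.36 (adjusted p = 0.00385).

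The anion channels of guard cells, SLAC1-like and SLAH3-like, which release chloride, malate or nitrate when stomata close, did not pass the test for salt. The SLAC1-like transcript (comp8420_c0_seq1) had 14.1, 12.8 and 11.2 RPKM in salt-treated leaves and 16.5, 12.6 and 19.5 RPKM in control leaves at 24 h (−0.31 ± 0.22, 95% interval −0.79 to 0.16, adjusted p = 0.265). The interval for SLAH3-like isoform comp25658_c0_seq1 at 24 h was wider, −0.75 to 0.90. A chloroplastic anion transporter (comp11997_c0), of a family that carries phosphate or other anions across the plastid envelope, was among the most abundant members and fell at 24 h. Its isoform seq2 had 93.6, 111 and 114 RPKM in salt-treated leaves and 220.0, 175 and 198 RPKM in control leaves (log2 fold change −0.89 ± 0.18, adjusted p = 0.00114), and seq1 fell by 0.79 ± 0.21 (adjusted p = 0.00701). The 6 h call of seq2 (−0.52 ± 0.18) was lost without control replicate 1 or 2 or salt replicate 1 or 3 (adjusted p of 0.07 to 0.14) and with the HPLC libraries alone (0.106).

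Sodium and potassium transport was covered by 3 members, and 0 were called for salt at either time by limma, with 1 at 6 h and 2 at 24 h at an unadjusted p under 0.05. Of all tested transcripts, 17.3% were called higher and 17.2% lower at 6 h, and 24.2% and 22.3% at 24 h. The HKT1-like sodium transporter (comp24565_c0_seq2), which in Arabidopsis draws sodium out of the xylem, had 3.71, 1.10 and 2.10 RPKM in salt-treated leaves and 0.965, 2.04 and 2.67 RPKM in control leaves at 24 h (0.16 ± 0.39, 95% interval −0.67 to 0.99). For the potassium transporter 11-like transcript (comp7592_c0_seq1) the salt replicates, 28.8, 23.3 and 23.9 RPKM, lay above the control replicates, 9.71, 19.9 and 18.8 RPKM, but the difference of 0.68 ± 0.29 was not called (adjusted p = 0.0709).

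Phosphate, nitrate and peptide transporters were called in few cases. An inorganic phosphate transporter 2-type chloroplastic transcript (comp11152_c0_seq1), which in Arabidopsis takes phosphate into the plastid, fell at both times. It had 18.0, 18.6 and 19.4 RPKM in salt-treated leaves and 36.9, 33.5 and 31.9 RPKM in control leaves at 6 h (log2 fold change −0.83 ± 0.22, adjusted p = 0.0103). Values at 24 h were 30.1, 33.2 and 21.5 RPKM in salt-treated leaves and 75.5, 56.5 and 73.4 RPKM in control leaves (log2 fold change −1.26 ± 0.22, adjusted p = 0.000383). Replicates of the groups were apart at both hours. The 4 isoforms of a PHO1 homolog 9-like transporter (comp16186_c0), of the family that exports phosphate, were not called, and 1 of 3 salt replicates at 6 h stood apart, with 7.04 RPKM for isoform seq1 beside 2.15 and 2.65 RPKM in the others. A nitrite transporter At1g68570-like transcript (comp12467_c0_seq1) had 34.5, 40.0 and 40.2 RPKM in salt-treated leaves and 20.4, 18.5 and 26.2 RPKM in control leaves at 6 h. It was higher than in control leaves by 0.80 ± 0.22 on the log2 scale (adjusted p = 0.0136), which without control replicate 2 was 0.70 and not called (adjusted p = 0.061). Its mean at 0 h, 55.0 RPKM, was above both groups of 6 h. At1g52190-like peptide transporter isoforms of comp11722_c0 fell by 1.07 ± 0.32 and 1.26 ± 0.35 at 24 h, and both lost the call without salt replicate 2 (adjusted p = 0.065 and 0.054), the first also without control replicate 1 (0.056). Neither was called with the HPLC libraries alone (adjusted p = 0.135 and 0.129). Its component total fell by 1.26 ± 0.33 (adjusted p = 0.00619).

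Metal transporters were lower under salt in every case that was called, 3 of 4 tested at 6 h and 1 of 4 at 24 h. Among all tested transcripts, 17.2% were lower at 6 h and 22.3% at 24 h. The 6 h calls include both isoforms of 1 zinc transporter component, which are not independent. A zinc transporter 1-like isoform (comp15224_c0_seq2) had 3.21, 2.60 and 4.70 RPKM in salt-treated leaves and 9.78, 12.9 and 17.7 RPKM in control leaves at 6 h (log2 fold change −1.67 ± 0.45, adjusted p = 0.0117). Isoform seq1 fell by 1.54 ± 0.48 (adjusted p = 0.0227), and lost the call without control replicate 3 (−1.21, adjusted p = 0.094) or without salt replicate 1 or 2 (adjusted p = 0.075 and 0.053), and with the HPLC libraries alone (−1.37, adjusted p = 0.069). At 24 h the groups of both isoforms overlapped. An NRAMP3-like metal transporter (comp17081_c0_seq1), which in Arabidopsis releases iron and manganese from the vacuole, had 26.5, 32.3 and 26.1 RPKM in salt-treated leaves and 48.4, 62.5 and 97.6 RPKM in control leaves at 24 h. Its fall of 1.21 ± 0.42 (adjusted p = 0.0267) was not called without control replicate 3 (−0.94, adjusted p = 0.099), without salt replicate 1 or 3, or with the HPLC libraries alone (−1.17, adjusted p = 0.0608). The third metal call at 6 h was an NRAMP1 isoform (comp26428_c0_seq6) below 1 RPKM in all replicates of both groups, −0.67 ± 0.24, which was lost in 5 of 6 leave-one-out fits, the exception being salt replicate 2 (adjusted p of 0.06 to 0.1), and with the HPLC libraries alone (−0.38, adjusted p = 0.435). Its component total, also at a low level, fell by 1.07 ± 0.21 at 6 h (adjusted p = 0.00158).

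ABC transporters, 14 members of 9 components, had 4 members higher and 3 lower at 24 h and 2 lower at 6 h. The shares of all tested transcripts were 24.2% higher and 22.3% lower at 24 h and 17.2% lower at 6 h. ABC transporter A family member 7-like (comp17232_c0_seq2) was the one member called in opposite directions. It had 10.5, 10.6 and 11.7 RPKM in salt-treated leaves and 26.4, 36.1 and 37.6 RPKM in control leaves at 6 h (log2 fold change −1.51 ± 0.22, adjusted p = 0.000285). At 24 h it had 14.8, 11.6 and 15.7 RPKM in salt-treated leaves and 5.80, 7.88 and 8.58 RPKM in control leaves (log2 fold change 0.84 ± 0.22, adjusted p = 0.00672). Thus its salt replicates spanned 10.5 to 15.7 RPKM over both hours, while the control replicates moved between 5.80 and 37.6 RPKM. C family members are known mostly from the vacuolar membrane. For ABC transporter C family member 10-like (comp22762_c0_seq1), RPKM at 24 h was 9.71, 8.67 and 9.67 in salt-treated leaves and 3.98, 2.23 and 4.39 in control leaves (log2 fold change 1.22 ± 0.26, adjusted p = 0.00148), and isoform seq5 rose by 1.05 ± 0.25. Another component of the same description (comp22604_c0_seq1), near 0 RPKM at 24 h, differed by −0.51 ± 0.47 and was not called (adjusted p = 0.386). Member 9-like (comp13575_c0_seq1) rose by 0.87 ± 0.30 at 24 h (adjusted p = 0.0263), a call lost without control replicate 2 (0.65, adjusted p = 0.12) or salt replicate 1 or 3. Conversely, both isoforms of a B family member 28-like transporter (comp26496_c0) fell at 24 h. Isoform seq10 had 22.5, 26.3 and 32.5 RPKM in salt-treated leaves and 64.8, 58.5 and 59.6 RPKM in control leaves (log2 fold change −1.15 ± 0.23, adjusted p = 0.00112). A D family chloroplastic-like isoform (comp18549_c0_seq2) fell by 0.92 ± 0.31 at 6 h, which was lost without control replicate 2 or 3 or salt replicate 2 or 3 (adjusted p of 0.081 to 0.12).

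Carriers of the mitochondrial family, a group of transporters of the inner membrane that lacked the organelle term here, included the most abundant member and some of the largest falls. Of 6 members of 3 components, 4 were lower and 1 higher at 24 h, and 0 were called at 6 h by limma, with 1 at an unadjusted p under 0.05 and a median log2 fold change of −0.35. Among all tested transcripts, 22.3% were lower and 24.2% higher at 24 h, and 17.2% and 17.3% at 6 h. A carnitine/acylcarnitine carrier-like transcript (comp14920_c0_seq1) had 60.2, 75.1 and 84.8 RPKM in salt-treated leaves and 336, 191 and 214 RPKM in control leaves at 24 h (log2 fold change −1.71 ± 0.28, adjusted p = 0.000198). Its isoform seq2, with a mean of 129 RPKM over all replicates the highest of the set, fell by 1.63 ± 0.25. A mitochondrial carrier protein (comp24901_c0_seq1) had 6.28, 10.3 and 7.78 RPKM in salt-treated leaves and 30.9, 25.8 and 31.0 RPKM in control leaves at 24 h (log2 fold change −1.75 ± 0.31, adjusted p = 0.000466). Its isoform seq3 fell by 1.16 ± 0.33, a call lost without control replicate 1 (−0.88, adjusted p = 0.057) and with the HPLC libraries alone (−0.82, adjusted p = 0.275). The member called higher was a phosphate carrier isoform at low level (comp7159_c0_seq2, 0.67 ± 0.24, adjusted p = 0.0295). That call was lost without control replicate 3 or salt replicate 2 or 3, with the HPLC libraries alone (adjusted p = 0.113) and with only the compared groups (0.0541). Its component total rose by 0.91 ± 0.21 (adjusted p = 0.00279).

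Among the remaining classes, a nucleobase-ascorbate transporter 6 transcript (comp21471_c0_seq1) had 3.97, 6.40 and 4.61 RPKM in salt-treated leaves and 9.46, 10.4 and 11.3 RPKM in control leaves at 24 h (log2 fold change −0.94 ± 0.25, adjusted p = 0.00669), a fall that was −0.51 and not called in the HPLC libraries alone (adjusted p = 0.34). A chloroplastic folate-biopterin transporter (comp25253_c0_seq1) had 1.45, 1.23 and 5.42 RPKM in salt-treated leaves and 0, 0.465 and 0.870 RPKM in control leaves at 24 h (1.22 ± 0.36, adjusted p = 0.0117). This call at low level was lost without control replicate 1 (0.98, adjusted p = 0.06) or salt replicate 3 (0.74, adjusted p = 0.062), and with the HPLC libraries alone (0.93, adjusted p = 0.132). The folate-biopterin transcript would not have passed the filter on low values without its salt replicates of 24 h. The purine permease 3-like and choline transporter-like transcripts were not called for salt.

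**Figure D4:**
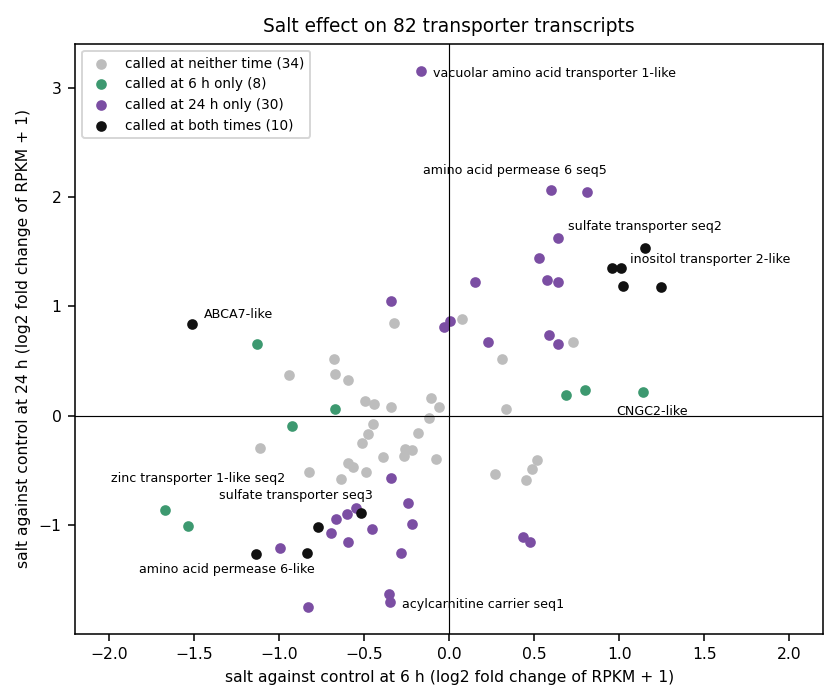
Log2 fold change of salt against control at 24 h (vertical axis) against that at 6 h (horizontal axis) for the 82 tested transporter transcripts, on the log2(RPKM + 1) scale, coloured by the times at which they were called. Of the 10 transcripts called at both times, 9 lie in the upper right or lower left and the ABCA7-like transcript lies in the upper left.

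The change of the salt effect between the times was tested directly. The effect was more positive at 24 h than at 6 h for 7 members (8.54%) and more negative for 5 (6.1%), against 17.1% and 15.2% of all tested transcripts. With every replicate at the same median, each difference moved down by 0.15 and the members called were 5 and 5. The vacuolar amino acid transporter 1-like transcript (3.32 ± 0.38, adjusted p = 0.000114) and the ABCA7-like transcript (2.35 ± 0.32, adjusted p = 0.000211) had the largest positive differences. The first of these passed the filter only through its salt replicates of 24 h, so its p is not independent of the filter. The B family member 28-like isoforms had the largest negative ones, −1.54 ± 0.38 for seq1 and −1.63 ± 0.33 for seq10.

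Between 6 h and 0 h, more transporter transcripts were called in control leaves than for salt at either hour. In control leaves, 44 of the 82 members were lower at 6 h than at 0 h (53.7%) and 21 were higher (25.6%), against 28.1% lower and 29% higher among all tested transcripts. The median log2 fold change was −0.86 for the members and −0.08 for all tested transcripts. With any 1 replicate left out, 60 to 66 members were called, and with all replicates at the same median 45 were lower and 20 higher. With isoforms summed, 40 of 52 components were called (76.9%, against 56.4% of all components), 28 of them lower. The RPKM summed over all 84 members was 1126 to 1320 at 6 h and 1722 to 1810 at 0 h. This sum is set mostly by abundant members and is no measure of how many fell. Mean RPKM went from 175 at 0 h to 54.8 at 6 h for comp11997_c0_seq2 and from 156 to 38.2 for comp26131_c1_seq3. It went the other way, from 17.3 to 118, for SWEET2a-like comp22595_c0_seq1. After a full day, at 24 h against 0 h, 17 members were lower (20.7%) and 5 higher (6.1%), against 22.1% and 16.2% of all. This split changed with the scaling, since setting all replicates to the same median moved values up by 0.20 and gave 9 lower and 14 higher, against 720 and 1067 of all tested transcripts. The control comparisons share the 0 h replicates, and the control replicates of 6 h and 24 h also serve as the controls of the salt comparisons. Markers of dividing cells summed to 10.03 to 18.4 RPKM at 24 h and 41.2 to 45.5 RPKM at 0 h in control leaves, with 9 of 10 called lower, and at 6 h to 33.4 to 58.6 RPKM, with 4 called higher and 1 lower. Isoforms of the same components are among these 10. Mesophyll markers summed to 3527 to 4902 RPKM at 24 h and 1899 to 2653 RPKM at 0 h, with 2 of 4 called higher, and at 6 h to 2291 to 4084 RPKM, with 1 called lower. Their part in the differences between hours was not tested. Time of day and any effect of handling or growth over the hours cannot be told apart in them.

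**Figure D5:**
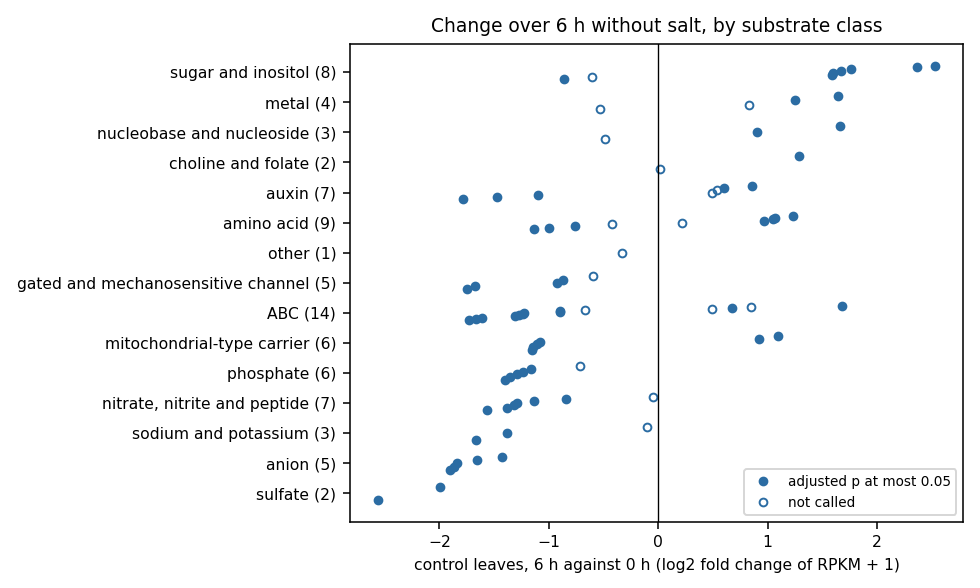
Log2 fold change of control leaves at 6 h against 0 h (horizontal axis, log2(RPKM + 1) scale) for each tested transporter transcript, by class, with the number tested in brackets. Filled points passed an adjusted p of 0.05. All sulfate and anion members lie at −1.43 or below, and 6 of 8 sugar and inositol members lie at 1.59 or above.

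By class, all 5 anion members, both sulfate isoforms, 6 of 7 nitrate, nitrite and peptide members and 5 of 6 phosphate members were lower at 6 h than at 0 h in control leaves, against 28.1% of all tested transcripts. The SLAC1-like channel had 3.62, 6.05 and 5.76 RPKM at 6 h and 15.8, 14.2 and 15.7 RPKM at 0 h (log2 fold change −1.43 ± 0.22, adjusted p = 8.17e-05), and 16.5, 12.6 and 19.5 RPKM at 24 h. So the 6 h replicates lay below those of 0 h and 24 h. SLAH3-like isoform comp25658_c0_seq1 fell by 1.90 ± 0.39 between the same hours. The HKT1-like sodium transporter had 0.920, 1.73 and 0 RPKM at 6 h and 5.92, 5.30 and 2.83 RPKM at 0 h (log2 fold change −1.66 ± 0.39, adjusted p = 0.00203). For the potassium transporter 11-like transcript the fall was 1.38 ± 0.29. Sulfate transporter-like isoform seq2 had the largest fall, with 4.84, 9.97 and 24.1 RPKM at 6 h and 45.3, 63.5 and 111 RPKM at 0 h (log2 fold change −2.56 ± 0.42, adjusted p = 0.00012).

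Of 8 sugar and inositol members, 6 were higher at 6 h than at 0 h, against 29% of all tested transcripts. All 6 were isoforms of the SWEET2a-like and ERD6-like components. The inositol transporter 2-like transcript (comp10770_c0_seq1) was lower (−0.86 ± 0.23, adjusted p = 0.00532), and the inositol transporter 4 transcript (comp24539_c0_seq1) was not called (−0.61 ± 0.30, adjusted p = 0.0962). SWEET2a-like isoform comp22595_c0_seq1, of a family of sugar uniporters that in Arabidopsis includes a vacuolar member of this number, had 178, 124 and 51.5 RPKM at 6 h and 15.4, 18.8 and 17.6 RPKM at 0 h (log2 fold change 2.53 ± 0.36, adjusted p = 3.39e-05). At 24 h it had 34.0, 16.4 and 18.7 RPKM in control leaves, and the 6 h replicates lay above all others of control leaves. The 4 ERD6-like 6 isoforms rose by 1.59 to 1.76 on the log2 scale. Higher at 6 h were also the purine permease 3-like transcript (comp16811_c0_seq1), which carries nucleobases, with 7.10, 5.84 and 6.23 RPKM at 6 h and 1.06, 1.60 and 1.34 RPKM at 0 h (log2 fold change 1.66 ± 0.29, adjusted p = 0.000176), and the NRAMP3-like metal transporter, which rose by 1.64 ± 0.42. At 24 h against 0 h, the PHO1 homolog 9-like isoforms were lower by 1.30 to 1.47, with 3.00, 2.04 and 1.75 RPKM at 24 h and 4.80, 7.57 and 11.5 RPKM at 0 h for seq1.

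Transport genes outside the rule were 24 transcripts, among them antiporters, ATP-driven pumps, MATE efflux proteins and components that the rule left out. At 24 h, 6 of them were higher and 8 lower in salt-treated leaves, and at 6 h 3 were higher and 1 lower, against the same background of 24.2% and 22.3% at 24 h and 17.3% and 17.2% at 6 h. The largest rise at 24 h was that of a SWEET11-like sugar transporter (comp26249_c0_seq6, 3.44 on the log2 scale) and the largest fall that of an aquaporin PIP2-4-like transcript (comp16298_c1_seq1, −2.18), which moves water. A V-type proton ATPase subunit e-like transcript (comp12758_c0_seq1), part of the pump that acidifies the vacuole, differed by −0.60 at 6 h and 0.56 at 24 h, neither of them called.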

How the data were processed

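Poly(A) RNA of petunia leaves was sequenced by the authors, who assembled the reads with Trinity, estimated the expression of each isoform with RSEM and annotated transcripts with Blast2GO. Per the file headers and values, the deposited table holds RPKM per library, not counts, and how its transcripts were chosen is not given in the sources used here. Of its 29 columns, 28 were used and 1 was left out, the non-HPLC library of salt 24 h replicate 2, because labels and columns disagree on the libraries of that group. The paper lists reads for this library and reports a failed non-HPLC library of control 6 h instead, so the column may be valid. Replicate 2 of salt 24 h and replicate 2 of control 6 h thus rest on 1 library each. Libraries made with HPLC and non-HPLC index primers were averaged per biological replicate. The paper divides the plants of each treatment into pooled groups and samples leaves at every hour. The same plants may thus have given leaves at each hour, which is not stated outright, and the fit treats hours as independent. The p-values measure the spread between these pools.

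Log2(RPKM + 1) was the scale of all tests. The 4658 transcripts at 1 RPKM or more in at least 3 replicates entered limma 3.58.1 (R 4.3.3), in 1 fit of the 5 groups with a trend in the prior variance. Adjusted p-values are Benjamini-Hochberg values over all of these. The fit was tested on simulated data. Members, classes and marker lists were read from descriptions and were chosen with earlier results of these data known. Named transcripts were those with the largest called changes, the smallest adjusted p per class, the highest mean per class, and their isoforms. Alternatives were a pseudocount of 0.1, no filter, a filter at 5 RPKM, equal medians, HPLC libraries alone, only the compared groups, a replicate block, a stricter call and leaving out each replicate. Tables and figures were made in Python 3.11.15 with pandas 2.3.3, numpy 2.4.6 and matplotlib 3.10.9. Contig lengths and the authors' own tests were not used here.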

Additional observations from a re-analysis of the deposited data

Results flagged for a closer look

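The salt effect differed between 24 h and 6 h, by limma's test of the difference itself, for 12 of the named transcripts. Differences are the salt effect at 24 h minus that at 6 h on the log2(RPKM + 1) scale, with the adjusted p.

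The salt effect was more positive at 24 h for the vacuolar amino acid transporter 1-like transcript (3.32, adjusted p = 0.000114), the ABC transporter A family member 7-like transcript (2.35, adjusted p = 0.000211) and amino acid permease 6 isoform comp25595_c0_seq5 (1.46, adjusted p = 0.0224). The same held for the mechanosensitive ion channel protein 8 isoforms comp25958_c0_seq4 (1.79, adjusted p = 0.0137) and comp25958_c0_seq3 (1.06, adjusted p = 0.0443). ABC transporter C family member 10-like isoforms comp22762_c0_seq5 and comp22762_c0_seq1 differed by 1.39 and 1.07 (adjusted p = 0.0105 and 0.0366). Of these, the vacuolar amino acid transporter 1-like transcript passed the filter only through its salt replicates of 24 h.

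The effect was more negative at 24 h for ABC transporter B family member 28-like isoforms comp26496_c0_seq10 and comp26496_c0_seq1 (−1.63 and −1.54, adjusted p = 0.00262 and 0.00855). Carnitine/acylcarnitine carrier-like isoforms comp14920_c0_seq1 and comp14920_c0_seq2 differed by −1.36 and −1.27 (adjusted p = 0.0169 and 0.0144). For the cyclic nucleotide-gated ion channel 2-like transcript the difference was −0.92 (adjusted p = 0.0231). With all replicates at the same median these differences would each be 0.15 lower.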

How the results depend on the processing

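Of 55 calls of named transcripts in the salt comparisons, 28 were kept under every alternative fit that gave a value. The stricter call is not counted among these fits, and it keeps fewer, as given below. When each replicate was left out in turn, 31 were kept, and 0 turned direction under any of the fits. The HPLC libraries alone kept 35, the fit of only the compared groups 51, a pseudocount of 0.1 and equal medians 52 each, and the filter at 5 RPKM kept all 47 that it tested. With an FDR of 0.001 and a minimum log2 change of 1, 2 members were called for salt at 6 h, 11 at 24 h, 2 for the change of the salt effect, 29 for control leaves at 6 h and 2 for control leaves at 24 h against 0 h. The HPLC libraries alone called 26 members for salt at 24 h in place of 40, 15 higher and 11 lower, and the fit of only the compared groups called 12 for control leaves at 24 h against 0 h in place of 22. Without 1 replicate, between 10 and 17 members were called for salt at 6 h, 30 to 36 at 24 h, 10 to 14 for the change of the salt effect, 60 to 66 for control leaves at 6 h and 14 to 27 at 24 h. The 14 came without control replicate 1 of 0 h.

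With a replicate block, 22 members were called for salt at 6 h in place of 18, 41 at 24 h in place of 40, and 12, 65 and 24 in the other comparisons in place of 12, 65 and 22. Same-numbered replicates of 2 groups deviated together with a correlation of −0.26 to 0.29, above 0.1 in 6 of 30 pairs, so the numbers were not taken to pair samples. With isoforms summed per component, chosen after the data had been seen, 13, 27, 10, 40 and 15 components were called in the 5 comparisons, beside 13, 27, 8, 40 and 16 components with at least 1 isoform called. Depth behind an RPKM value is unknown, which limits the transcripts near 1 RPKM most.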
